A study of Mus musculus with 6 samples.

Results

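Heparan sulfate enzymes, glypicans and syndecans were compared between 2 adjoining regions of ventral midbrain, taken from C57BL/6 mouse embryos of mixed sex at embryonic day 10.5. The pieces were the floor plate, which forms the ventral midline and is a source of Sonic hedgehog, and the ventral lateral tissue beside it, dissected so that they did not overlap. Each region had 3 samples, each pooling 6 embryos, and total RNA (5 ng per sample) was amplified and labelled with biotin for Affymetrix mouse arrays. Whether pools of the 2 regions came from the same embryos is not stated, and the spread behind each p-value is that between pools. The members were defined by gene name, in a family chosen with earlier results of these data known. Every probe set with a single gene symbol of the Ext, Extl, Ndst, Hs2st, Hs3st, Hs6st, Sulf, Gpc or Sdc families, or Glce, was taken. This gave 70 probe sets of 31 genes among 45037 probe sets tested. A deposited value is a log ratio, relative to the median of that probe set across all arrays; it shows how samples differ and holds no expression level. Log2 and higher values for more RNA were assumed, since neither is stated in the sources used here.

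Heparan sulfate is a long sugar chain carried by core proteins at the cell surface and in the matrix. Ext enzymes polymerise the chain, and Ndst enzymes then replace acetyl groups with sulfate, which opens the way for the epimerase Glce and for sulfotransferases that add sulfate at defined positions of the sugars. Sulf1 and Sulf2 act outside the cell and remove 6-O-sulfates from the finished chain. The sulfation pattern sets which ligands the chain holds, among them Hedgehog, Wnt, Fgf and BMP proteins, and Sulf1 is known from the floor plate of the neural tube, where it modulates Sonic hedgehog signalling.

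The desulfating enzymes Sulf1 and Sulf2, the 2-O-sulfotransferase Hs2st1, the syndecan Sdc2 and the glypican Gpc6 were higher in floor plate, and the N-deacetylase/N-sulfotransferase Ndst3 and the 3-O-sulfotransferases Hs3st3a1 and Hs3st3b1 were lower. On single probe sets the 3 lower genes differed by 4.49-fold to 13.0-fold and the higher genes by at most 5.10-fold. In all, 10 member probe sets of 5 genes rose and 3 of 3 genes fell (limma, Benjamini-Hochberg adjusted p under 0.05 over all probe sets), and 23 genes had no probe set past the threshold. These 13 probe sets are 18.6% of the members, against 4.71% of all probe sets tested (2.70% higher and 2.01% lower). The regions did not overlap in 31 member probe sets, 44.3%, against 22.4% of all. Since the members were chosen with earlier results known, these shares do not test the family. The median log2 difference was 0.06 over the members and -0.0040 over all probe sets. In bulk tissue, fewer cells of a type and less RNA per cell cannot be told apart.

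**Figure D1:**
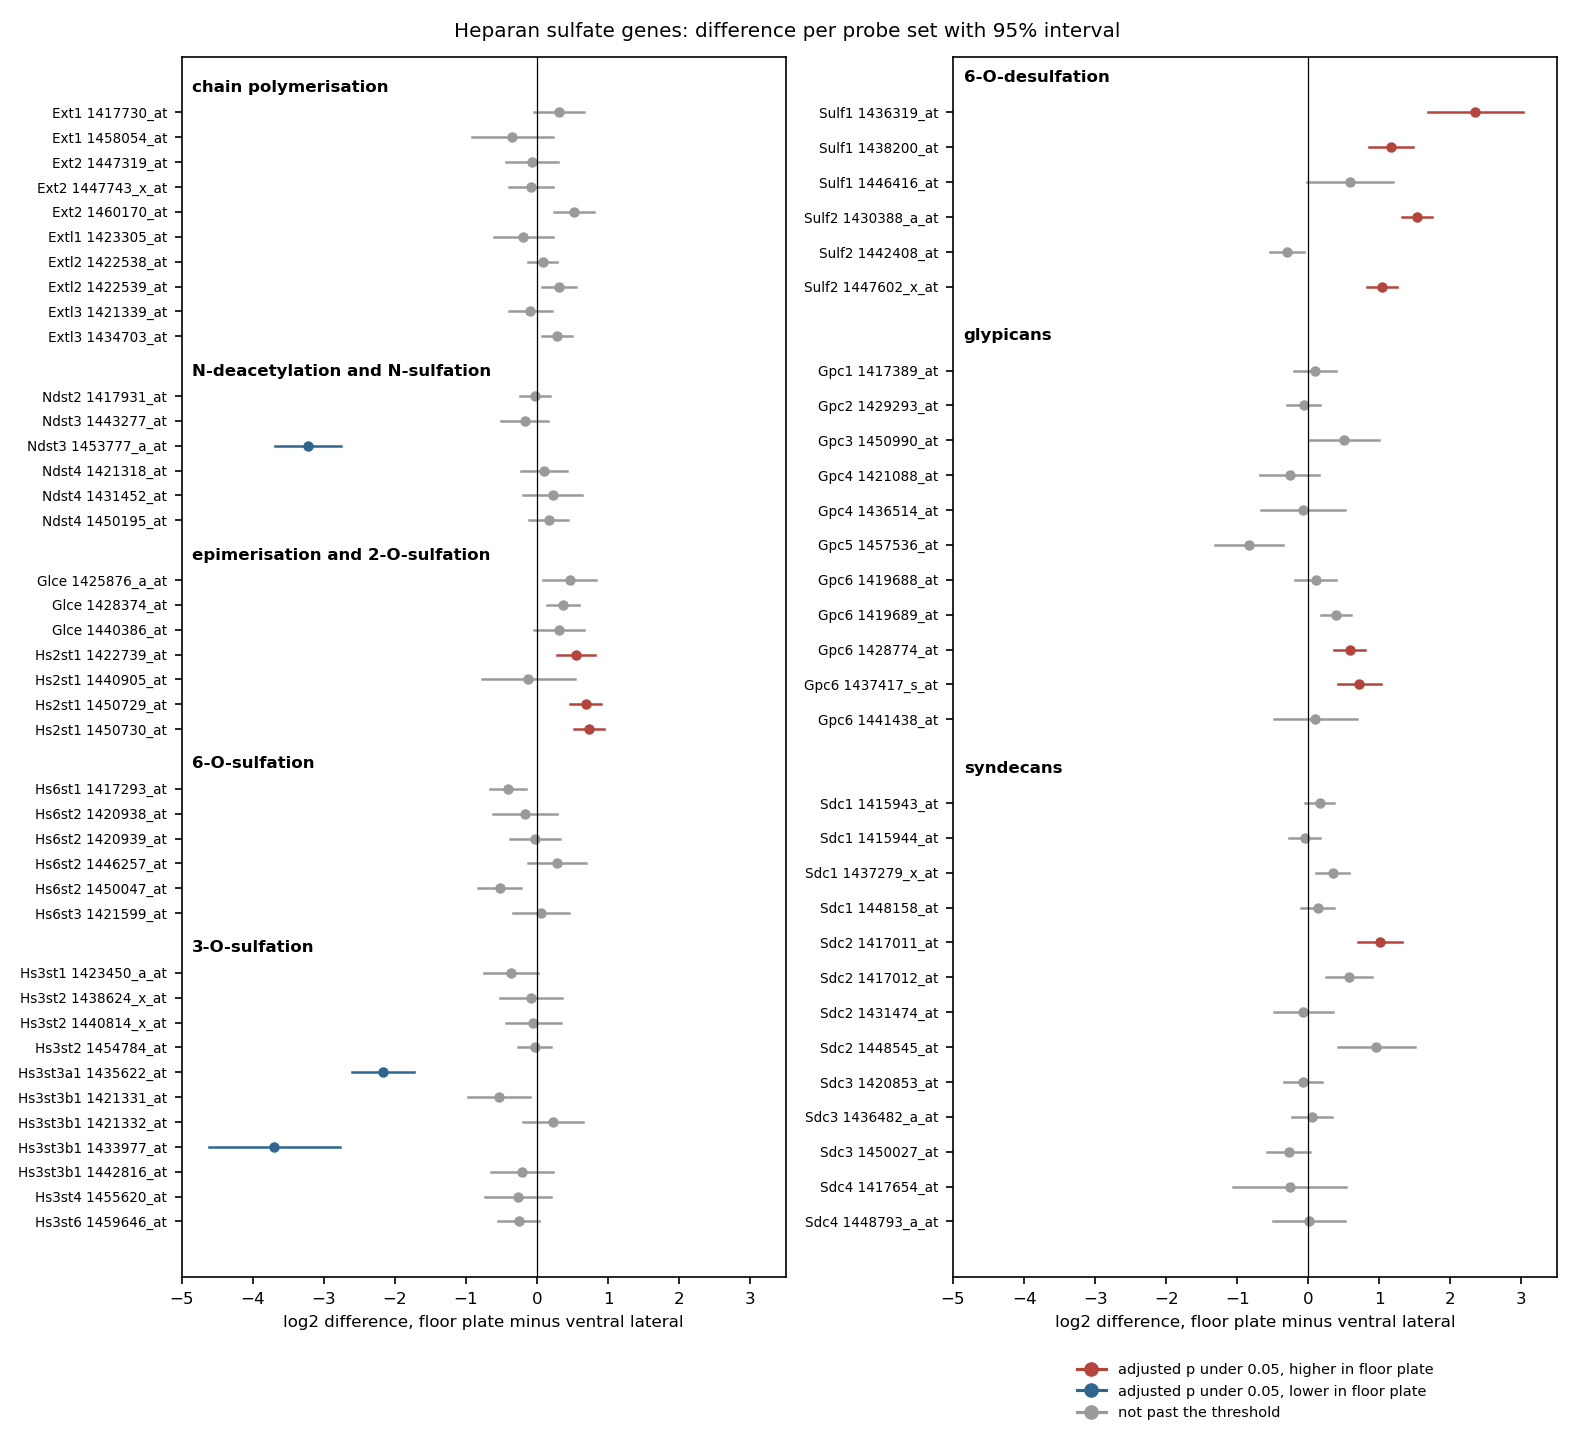
Log2 difference between floor plate and ventral lateral samples (x axis, 3 samples each) for each of the 70 probe sets, grouped by the step the gene serves; lines are 95% intervals of the limma fit. The 3 lower probe sets, of Ndst3, Hs3st3a1 and Hs3st3b1, lie at -2.17 to -3.70, far from the rest, and 4 of the 6 Sulf probe sets lie at 1.03 to 2.35.

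The labels were checked with marker genes of the regions. Of 16 probe sets of 9 floor plate genes 13 were higher in floor plate and none lower, and of 18 probe sets of 8 ventral lateral genes 13 were lower. The forkhead factor gene Foxa2 was 3.39-fold higher in floor plate (log2 difference 1.76, adjusted p = 0.0132, limma) but not past the threshold when floor plate replicate 1 was left out (adjusted p = 0.0575). The 2 probe sets of Shh gave 1.76 and 0.16, neither past the threshold. The mean of the floor plate markers was 0.94 to 1.10 in the floor plate samples and, in ventral lateral replicates 1, 2 and 3, -1.63, -0.90 and -2.08, so replicate 2 stood nearest to the floor plate. Mesenchyme markers had means of -0.36 to 0.45 against -0.54 to 0.35, and blood markers of -0.08 to 0.13 and -0.11 to 0.22, so both overlapped between the regions. For both lists replicate 2 was the highest of its region. Among 10 mesenchyme genes only Twist1 passed the test (log2 difference 2.11). The mean of the neuronal markers was lower in floor plate without overlap, at -0.30 to -0.08 against -0.01 to 0.39. Of their 22 probe sets 4, of Ina, Nefl and Stmn2, passed as lower, or 18.2% against 4.71% of all probe sets. Another 5 of the 8 neuronal genes had no call, and 5 probe sets, of Elavl4 and Map2, had positive log2 differences (0.02 to 0.19). Endothelial markers had means of -0.24 to 0.06 against 0.02 to 0.18, with 1 of 9 probe sets lower, and none of the 9 probe sets of microglia and macrophages was called by limma (2 at an unadjusted p under 0.05). Whether the share of neurons or of ventral lateral cells bears on the lower members was not tested.

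The 3-O-sulfotransferases add the rarest sulfate of the chain, late in its synthesis. Hs3st3b1 had the largest difference of all members. Its probe set 1433977_at was at -3.04, -1.74 and -1.39 in floor plate replicates 1 to 3 and at 1.39, 1.51 and 2.01 in ventral lateral replicates 1 to 3. All floor plate samples were far below all ventral lateral samples, and floor plate replicate 1 was the lowest. The means were -2.06 ± 0.87 and 1.64 ± 0.33 (SD, n = 3 each), a log2 difference of -3.70 (SE 0.40, adjusted p = 0.00236, limma). The other 3 probe sets of Hs3st3b1 did not show this, with log2 differences of -0.53, -0.21 and 0.23 (adjusted p of 0.198 to 0.666), so the call rests on 1 of 4 probe sets. On the mean of the 4 the log2 difference was -1.05 and passed the threshold (adjusted p = 0.00457).

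Hs3st3a1, which encodes an enzyme of nearly the same catalytic domain as Hs3st3b1, has a single probe set. It was at -0.87, -1.05 and -1.31 in floor plate and at 0.93, 0.87 and 1.48 in ventral lateral samples. The regions did not overlap, and the log2 difference was -2.17 (SE 0.19, adjusted p = 0.000925, limma). Because the catalytic parts are so alike, probes of one gene may bind RNA of the other; this was not tested. Hs3st5 was not analysed here. The other 3-O-sulfotransferase genes among the members, Hs3st1, Hs3st2, Hs3st4 and Hs3st6, had no call by limma in their 6 probe sets. No unadjusted p of theirs was under 0.05. Of these genes Hs3st1, whose enzyme makes the antithrombin-binding site, was furthest from 0. It was at -0.29, -0.01 and 0.01 against 0.24, -0.01 and 0.57, so the regions overlapped, and the 95% interval of the log2 difference ran from -0.74 to 0.02 (adjusted p = 0.334).

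Hs3st3b1 and Hs3st3a1 lie on chromosome 11 in the RefSeq annotation, in opposite orientations, with 6 annotated genes between them, of which Cox10 is protein-coding and the others are long non-coding RNA genes. Cox10, chosen after the location was seen, had no probe set past the threshold, with log2 differences of -0.11 to -0.23 (adjusted p of 0.320 to 0.650). Promoter windows are shown for the 3 genes that fell, and for Sulf2 as a gene that rose. They are the start sites of members with large differences or a small adjusted p. The windows run from 250 bases before to 50 after a RefSeq transcript start in GRCm38.p6, 5′ to 3′ on the gene's strand, with each CG dinucleotide in capitals. Hs3st3a1 and Hs3st3b1 have 1 window each, chr11:64435082-64435381 on the plus strand and chr11:63922235-63922534 on the minus strand. Ndst3 has 2, chr3:123619401-123619700 and chr3:123672428-123672727, and Sulf2 has 2, chr2:166155236-166155535 and chr2:166155634-166155933, all on the minus strand.
Hs3st3a1: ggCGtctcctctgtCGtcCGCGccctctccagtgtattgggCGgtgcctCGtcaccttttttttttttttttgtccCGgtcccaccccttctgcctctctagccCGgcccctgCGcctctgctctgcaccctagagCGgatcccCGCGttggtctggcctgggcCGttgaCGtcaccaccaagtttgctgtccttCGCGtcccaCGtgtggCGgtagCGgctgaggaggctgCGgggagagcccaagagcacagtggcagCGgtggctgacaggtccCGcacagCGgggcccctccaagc
Hs3st3b1: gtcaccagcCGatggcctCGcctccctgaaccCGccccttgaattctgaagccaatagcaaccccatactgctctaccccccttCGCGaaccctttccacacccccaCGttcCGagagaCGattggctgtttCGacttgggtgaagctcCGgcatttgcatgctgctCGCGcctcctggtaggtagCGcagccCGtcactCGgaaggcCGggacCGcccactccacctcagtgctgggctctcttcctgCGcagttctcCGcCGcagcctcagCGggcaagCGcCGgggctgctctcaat
Ndst3, first window: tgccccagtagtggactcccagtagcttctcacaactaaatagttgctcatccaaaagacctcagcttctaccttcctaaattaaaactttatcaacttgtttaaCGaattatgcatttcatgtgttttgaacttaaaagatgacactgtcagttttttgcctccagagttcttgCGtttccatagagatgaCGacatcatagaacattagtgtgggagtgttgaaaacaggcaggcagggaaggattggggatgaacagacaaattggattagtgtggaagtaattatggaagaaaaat
Ndst3, second window: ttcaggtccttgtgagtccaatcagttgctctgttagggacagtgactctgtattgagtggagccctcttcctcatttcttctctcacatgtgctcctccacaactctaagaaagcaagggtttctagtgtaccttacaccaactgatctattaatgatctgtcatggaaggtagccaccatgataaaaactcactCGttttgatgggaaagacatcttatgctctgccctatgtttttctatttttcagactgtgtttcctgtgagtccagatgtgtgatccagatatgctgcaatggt
Sulf2, first window: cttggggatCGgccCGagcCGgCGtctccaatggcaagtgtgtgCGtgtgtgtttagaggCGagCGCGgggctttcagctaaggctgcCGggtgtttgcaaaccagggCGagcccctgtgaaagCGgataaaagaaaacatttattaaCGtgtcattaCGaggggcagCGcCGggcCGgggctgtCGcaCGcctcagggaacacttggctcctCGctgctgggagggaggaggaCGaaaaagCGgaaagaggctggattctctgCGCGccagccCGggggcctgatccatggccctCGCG
Sulf2, second window: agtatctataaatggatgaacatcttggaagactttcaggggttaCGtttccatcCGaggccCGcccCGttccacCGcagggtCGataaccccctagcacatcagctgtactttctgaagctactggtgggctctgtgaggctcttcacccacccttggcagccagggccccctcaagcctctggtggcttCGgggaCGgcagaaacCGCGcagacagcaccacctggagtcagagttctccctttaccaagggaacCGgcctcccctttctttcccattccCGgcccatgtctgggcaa
Hs3st3a1 and Hs3st3b1 both hold 23 CG dinucleotides, a count reached by 21.5% of all 32851 RefSeq windows. The Ndst3 windows hold 3 and 1, against a median of 7 over all windows, and the Sulf2 windows hold 26 and 12. The genes that fell therefore do not share this feature. Windows were found for 23 of the 31 genes, 27 windows in all, and were searched on both strands for short motifs. Each motif was searched as 1 exact string of letters, and variants of it were not searched. The Foxa motif, TGTTTAC, was in none of the member windows and in 3.65% of all windows. The Gli motif, GACCACCCA, was in none of the member windows either and in 0.253% of all. Absence of such rare strings from 27 windows says little. The Gata motif, AGATAA, was in 1 member window, of Gpc5, and in 11.2% of all. The letters TATAAA, at any position of the window, were in 3, of Sulf2, Gpc5 and Hs6st2, against 13.6% of all. In the second Sulf2 window they stand at the upstream end, far from the start. Distance from the start was not tested, so these letters need not be TATA boxes.

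Ndst3 encodes one of the enzymes that begin chain modification by exchanging acetyl groups for sulfate. Its probe set 1453777_a_at was at -1.43, -1.44 and -1.52 in floor plate and at 2.24, 1.43 and 1.59 in ventral lateral samples. The floor plate samples were nearly equal and all far below the lowest ventral lateral sample. The log2 difference was -3.22 (SE 0.20, 9.33-fold, adjusted p = 0.000276, limma). Its other probe set, 1443277_at, gave -0.17 with a 95% interval of -0.50 to 0.16 and did not pass (adjusted p = 0.635), so this call too rests on a single probe set. On the mean of both the log2 difference was -1.70 (adjusted p = 0.000221). Ndst2 and Ndst4 had no call by limma in 4 probe sets, nor an unadjusted p under 0.05. Ndst4, the further from 0 of the pair, was at 0.07, -0.08 and 0.56 in floor plate and 0.14, -0.07 and -0.18 in ventral lateral samples on probe set 1431452_at, and these overlapped (log2 difference 0.22, 95% interval -0.19 to 0.63). Ndst1 was not analysed here.

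Removal of 6-O-sulfate had 4 of 6 probe sets higher, with calls in both of its genes. Sulf2 had the smallest adjusted p of all members. Its probe set 1430388_a_at was at 0.71, 0.79 and 0.83 in floor plate and at -0.75, -0.71 and -0.80 in ventral lateral samples. The spread within a region was small against the gap between regions, with means of 0.78 ± 0.06 and -0.75 ± 0.04 (SD, n = 3 each), a 2.89-fold difference (log2 1.53, SE 0.09, adjusted p = 0.000239, limma). A second probe set, 1447602_x_at, was at 0.46, 0.58 and 0.57 against -0.51, -0.52 and -0.46, a log2 difference of 1.03 (adjusted p = 0.000961). The third, 1442408_at, went the other way. It was at -0.19, -0.08 and -0.35 in floor plate against 0.08, 0.11 and 0.08, without overlap. Its log2 difference of -0.30 did not pass (95% interval -0.53 to -0.06, adjusted p = 0.186). The mean of the 3 gave 0.75 (adjusted p = 0.000968).

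Sulf1 encodes the second extracellular 6-O-endosulfatase. Its probe set 1436319_at was at 0.80, 0.91 and 1.12 in floor plate and at -1.35, -0.80 and -2.07 in ventral lateral samples, a 5.10-fold difference (log2 2.35, SE 0.29, adjusted p = 0.00397, limma). Probe set 1438200_at was at 0.41, 0.51 and 0.57 against -0.78, -0.41 and -0.81 (log2 difference 1.17, SE 0.13, adjusted p = 0.00286). All floor plate samples were above all ventral lateral samples on both, and the ventral lateral samples differed among themselves more than the floor plate samples did. Ventral lateral replicate 2, in which the floor plate markers were also nearest to the floor plate, had the highest Sulf1 value of its region on both probe sets. Without it the log2 differences were 2.65 and 1.29. The third probe set gave 0.59 and did not pass (adjusted p = 0.314), and the mean of the 3 gave 1.37 (adjusted p = 0.00152).

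The enzymes that add 6-O-sulfate, the group that the Sulf enzymes remove, showed no call. None of the 6 probe sets of Hs6st1, Hs6st2 and Hs6st3 passed limma's threshold, and 2 of them had an unadjusted p under 0.05. Hs6st2 probe set 1450047_at was at -0.10, -0.36 and -0.52 in floor plate and 0.31, 0.18 and 0.10 in ventral lateral samples. These did not overlap, but the log2 difference of -0.53 had an adjusted p of 0.0703, and the other 3 probe sets of the gene lay at -0.17 to 0.28. It passed when floor plate replicate 1 was left out (-0.64, adjusted p = 0.0482). Hs6st1, with 1 probe set, was lower in every floor plate sample (log2 difference -0.41, 95% interval -0.66 to -0.15, adjusted p = 0.0940). It passed when 1 value per gene was tested and adjusted over 18193 genes (adjusted p = 0.0468). All 95% intervals of these genes lay between -0.83 and 0.69.

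Glce and Hs2st1 act in sequence: the epimerase turns glucuronic into iduronic acid, and the 2-O-sulfotransferase then sulfates it. Hs2st1 rose on 3 of its 4 probe sets. Probe set 1450730_at was at 0.41, 0.44 and 0.30 in floor plate and at -0.40, -0.36 and -0.30 in ventral lateral samples, a 1.66-fold difference (log2 0.74, SE 0.09, adjusted p = 0.00445, limma). Probe set 1450729_at was at 0.32, 0.29 and 0.40 against -0.42, -0.29 and -0.33 (log2 difference 0.69, adjusted p = 0.00606). Probe set 1422739_at was at 0.42, 0.19 and 0.19 against -0.42, -0.24 and -0.19 (log2 difference 0.55, adjusted p = 0.0376). No floor plate sample overlapped with a ventral lateral sample on these 3, and the third missed the threshold whenever any 1 array was left out (adjusted p of up to 0.123). All 3 are annotated to the same transcript record, so they are not independent of each other. The fourth, 1440905_at, varied most among the arrays and gave -0.12 (adjusted p = 0.889). Glce leaned the same way on its 3 probe sets without passing, at log2 differences of 0.32 to 0.46 (adjusted p of 0.0880 to 0.361). Its probe set 1425876_a_at was at 0.06, 0.13 and 0.27 in floor plate and -0.06, -0.65 and -0.23 in ventral lateral samples.

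Chain polymerisation showed no call by limma in its 10 probe sets, of which 3 had an unadjusted p under 0.05. Ext1 and Ext2 form the polymerase, and Extl1, Extl2 and Extl3 are related glycosyltransferases. The log2 differences ran from -0.35 to 0.52, with 95% intervals between -0.92 and 0.80. Ext2 probe set 1460170_at was closest to a call, at 0.43, 0.18 and 0.15 in floor plate and -0.23, -0.42 and -0.15 in ventral lateral samples (log2 difference 0.52, adjusted p = 0.0574, limma). Its other probe sets gave -0.07 and -0.09. Ext2 passed on that probe set when only probe sets with a single symbol were adjusted together (adjusted p = 0.0472).

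**Figure D2:**
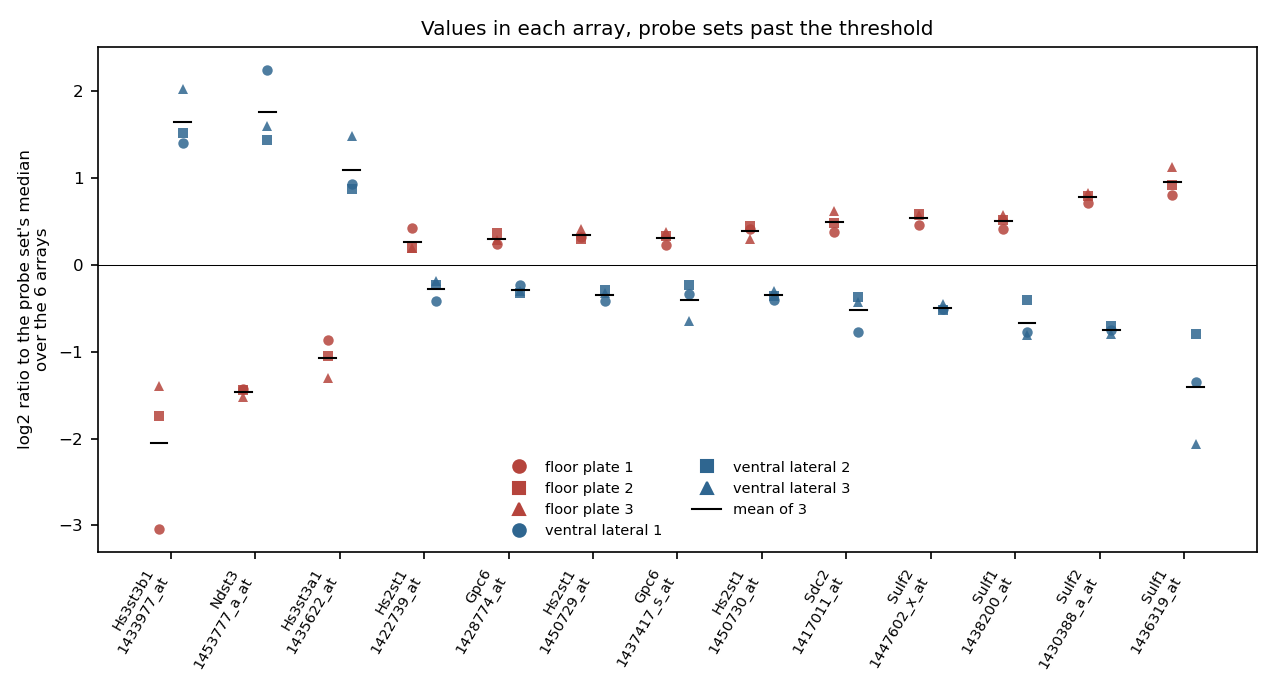
Log2 ratio to the probe set's own median (y axis) in each of the 6 arrays for the 13 probe sets past the threshold, ordered by their difference; symbols mark the replicate, colours the region and lines the mean of 3. Floor plate and ventral lateral samples are apart on every probe set, with the largest differences of means on Hs3st3b1, Ndst3 and Sulf1 1436319_at. The ventral lateral samples of Sulf1 spread from -2.07 to -0.80 on 1436319_at.

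Syndecans are transmembrane core proteins. Sdc2 was the only one of 4 with a call, on 1 of its 4 probe sets. Probe set 1417011_at was at 0.37, 0.48 and 0.61 in floor plate and at -0.77, -0.37 and -0.43 in ventral lateral samples, without overlap. The log2 difference was 1.01 (SE 0.13, 2.02-fold, adjusted p = 0.00548, limma). Probe sets 1448545_at and 1417012_at, annotated to the same transcript record, gave 0.96 and 0.57 and just missed the threshold (adjusted p of 0.0690 and 0.0662), and the fourth gave -0.07. The first of these passed when ventral lateral replicate 2 was left out (1.15, adjusted p = 0.0411). Sdc1, Sdc3 and Sdc4 had log2 differences of -0.28 to 0.34 over 9 probe sets. Of these Sdc1 probe set 1437279_x_at was furthest from 0, at 0.14, 0.10 and 0.14 in floor plate and -0.33, -0.22 and -0.10 in ventral lateral samples (adjusted p = 0.118).

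Glypicans are core proteins held in the outer membrane leaflet by a lipid anchor, and several are known to bind Hedgehog or Wnt proteins. Gpc6 rose on 2 of its 5 probe sets. Probe set 1428774_at was at 0.23, 0.36 and 0.28 in floor plate and -0.23, -0.32 and -0.31 in ventral lateral samples (log2 difference 0.58, SE 0.09, adjusted p = 0.0118, limma). Probe set 1437417_s_at was at 0.23, 0.33 and 0.37 against -0.34, -0.23 and -0.65 (log2 difference 0.72, adjusted p = 0.0209). The regions did not overlap on either, but the differences were only 1.49-fold and 1.64-fold. The first missed the threshold without ventral lateral replicate 2 or 3, and the second without any floor plate replicate or ventral lateral replicate 1 (adjusted p of up to 0.0755). The other 3 probe sets of Gpc6 lay at 0.10 to 0.39.

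Gpc5 leaned the other way. It was at -0.50, -0.09 and -0.32 in floor plate and 0.61, 0.88 and 0.09 in ventral lateral samples, so the regions did not overlap. The log2 difference of -0.83 did not pass (95% interval -1.31 to -0.35, adjusted p = 0.0731, limma). It passed when ventral lateral replicate 3 was left out (-1.05, adjusted p = 0.0226), with the replicate number as a block (adjusted p = 0.0497) and when 1 value per gene was tested (adjusted p = 0.0450). Gpc3, which binds Hedgehog proteins, was at 0.12, 0.42 and -0.03 against -0.76, -0.28 and 0.03, with overlap (log2 difference 0.51, SE 0.21, adjusted p = 0.284). Gpc1, Gpc2 and Gpc4 lay at -0.26 to 0.10.

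Leaving out each array in turn separated probe sets that kept their call in every fit from marginal ones. It does not weigh a call against the gene's other probe sets, and the calls of Ndst3 and Hs3st3b1 rest on a single probe set each. The 10 probe sets of Ndst3, Hs3st3a1, Hs3st3b1, Sulf1, Sulf2 and Sdc2, with 1450729_at and 1450730_at of Hs2st1, passed in all 6 such fits, at adjusted p of up to 0.0278. The marginal ones were 1422739_at of Hs2st1 and both probe sets of Gpc6. When each gene was represented by the mean of its probe sets, 5 member genes were higher and 5 lower out of 31, against 8.13% of 18193 genes called. The genes added were Gpc5 and Hs6st1, each with 1 probe set, and the 8 others were those named above.

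**Figure D3:**
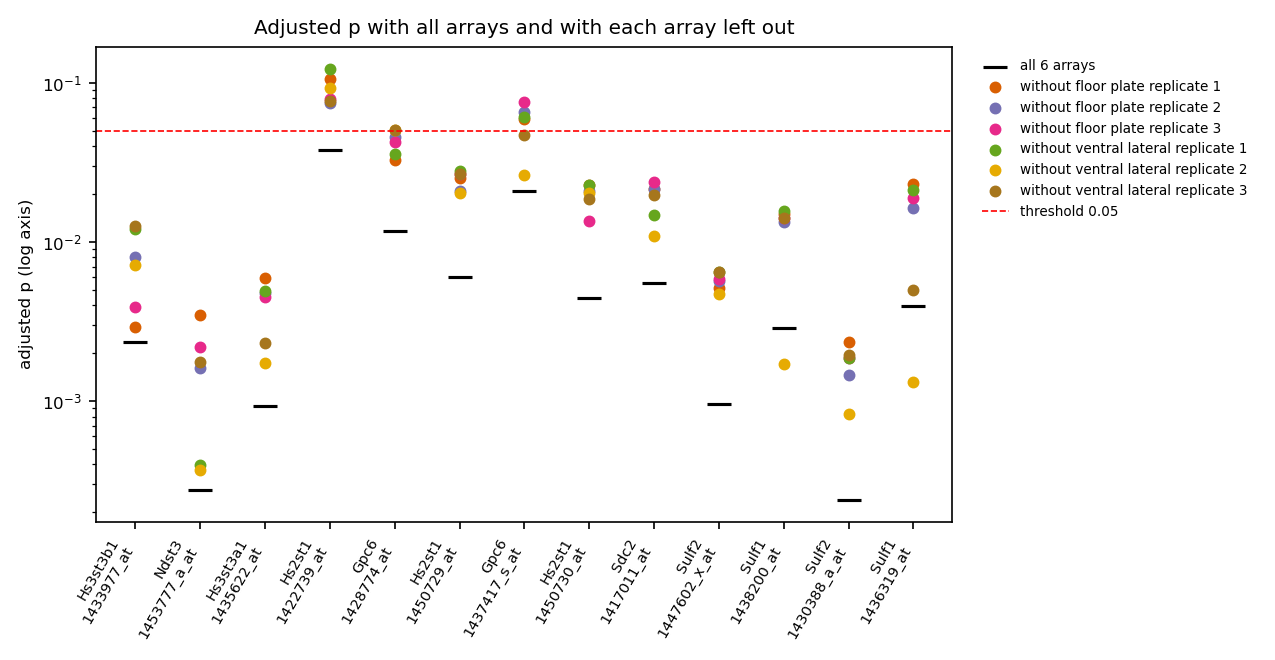
Adjusted p (log axis) of the 13 probe sets past the threshold with all 6 arrays (black bars) and with each array left out (coloured points); the dashed line is 0.05. Hs2st1 1422739_at is above the line in all 6 fits, the Gpc6 probe sets cross it, and Sulf2 1430388_a_at stays at or below 0.00235.

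Genes of adjoining steps were read from lists. The enzyme that cuts the chain, heparanase (Hpse), had the largest difference. It was at 1.68, 1.42 and 1.83 in floor plate and at -1.46, -1.45 and -1.42 in ventral lateral samples, an 8.46-fold difference on its single probe set (log2 3.08, SE 0.12, adjusted p = 6.04e-05, limma). The ventral lateral samples were nearly equal, and the gap to the floor plate samples was many times the spread. Arsg, a lysosomal sulfatase that removes 3-O-sulfates, rose on both of its probe sets (log2 differences of 1.19 and 1.33, adjusted p of 0.0101 and 0.00783). No other of the 10 breakdown and release genes measured had a call, so 3 of 19 probe sets of that list rose and none fell. These are 15.8% of the list, against 4.71% of all probe sets.

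Other heparan sulfate core proteins went both ways, with 6 of 18 probe sets higher, of 3 genes, and 1 lower. That is 38.9% called, against 4.71% of all probe sets. Nrp1, a neuropilin that can carry such chains, rose on 3 of its 4 probe sets (log2 differences of 1.03 to 1.31, adjusted p of 0.00311 to 0.0183). The basement membrane genes Col18a1 (0.70 and 0.84, adjusted p of 0.0382 and 0.0228) and Hspg2, encoding perlecan (0.57, adjusted p = 0.0439), rose by less. Hspg2 was not past the threshold when any array but ventral lateral replicate 3 was left out (adjusted p of 0.110 to 0.133). Its other probe set overlapped between the regions (0.29, adjusted p = 0.647, limma). The mean of the gene's probe sets did not pass (0.43, adjusted p = 0.191), nor did the call hold with a trended and robust eBayes (adjusted p = 0.130). Col18a1 1418237_s_at was lost without any array but ventral lateral replicate 2, and 1426955_at without floor plate replicate 1 or 2 (adjusted p of 0.0628 to 0.127). Nrp1 1448944_at was lost without floor plate replicate 2 or 3 or ventral lateral replicate 1 (adjusted p of 0.0537 to 0.0566). Spock1, encoding a testican, fell by 1.01 on the log2 scale on 1 of 2 probe sets (adjusted p = 0.00996). The list's median log2 difference was 0.19.

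Synthesis of the linker that joins chain to core showed 1 gene with a call among 6. Of the 14 probe sets of that list 14.3% were called, against 4.71% of all probe sets. Pxylp1, encoding a phosphatase that acts on the linker xylose, rose on 2 of 3 probe sets (log2 differences of 1.11 and 0.97, adjusted p of 0.00531 and 0.00782). Of 30 probe sets for supply of sulfate donor and sugar nucleotides 1 rose, or 3.33%, below the 4.71% of all probe sets. It was of Uxs1, which makes UDP-xylose (log2 difference 0.45, adjusted p = 0.0417). That call was lost when any single array was left out (adjusted p of 0.0691 to 0.138). The other Uxs1 probe sets gave 0.16 and -0.06, and the mean of the gene's probe sets did not pass (adjusted p = 0.231). Enzymes of chondroitin and dermatan sulfate, the sister chains built on the same linker, had 1 probe set higher and 1 lower of 22 (9.09%). These were of Chst11 (0.50, adjusted p = 0.0435) and Chst15 (-0.67, adjusted p = 0.0493). Chst11 was lost without any single array (adjusted p of 0.0802 to 0.132) and Chst15 without any but ventral lateral replicate 2 (0.111 to 0.164). The other Chst11 probe set gave -0.21, and the gene mean of 0.15 did not pass (adjusted p = 0.470). Chst15 was also lost with a trended and robust eBayes (adjusted p = 0.166) and with array weights (0.0810). The other Chst15 probe set leaned the same way without passing (-0.42, adjusted p = 0.0763). Among chondroitin sulfate core proteins Ptprz1, a receptor phosphatase of radial glia and other neural cells, fell on 3 probe sets (log2 differences of -1.83 to -2.16), and so did the brain proteoglycan gene Ncan on 2 (-0.92 and -1.10). Vcan, encoding versican, rose on 3 of its 8 probe sets (1.24 to 1.68). In all 32% of the 25 probe sets of that list were called, against 4.71% of all probe sets. Ncan 1434679_at was lost without floor plate replicate 1 or 3, and 1444020_at also when ventral lateral replicate 1 or 2 was left out, with adjusted p between 0.0503 and 0.0836. Vcan 1421694_a_at was lost without any floor plate replicate or ventral lateral replicate 3, and 1427256_at without floor plate replicate 1 or 3 or ventral lateral replicate 3 (adjusted p of 0.0539 to 0.0946), while the third Vcan probe set passed in all 6 fits.

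**Figure D4:**
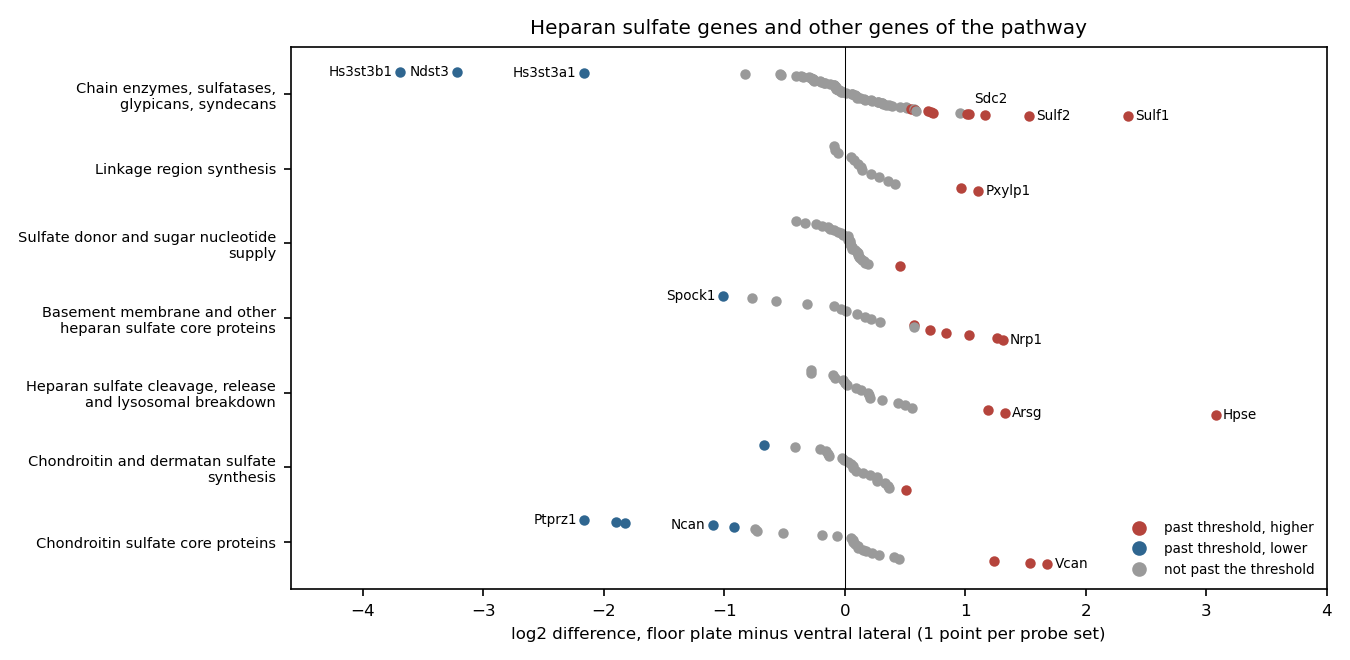
Log2 difference between floor plate and ventral lateral samples (x axis), 1 point per probe set, for the members and for 6 lists of other genes of the pathway. Hpse at 3.08 is the highest point of any row, Hs3st3b1 at -3.70 the lowest, and the linker, sulfate supply and chondroitin synthesis rows stay close to 0 apart from Pxylp1.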

How the data were processed

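The members and gene lists were chosen with earlier results of these data known. Expression was measured on 6 Affymetrix arrays, 3 per region. The submitters' processing notes name RMA (background correction, quantile normalization and probe summary); its version is not given there. The deposited log values (taken as log2, an assumption) were centred per probe set by the authors (row medians within 1e-05 of 0 in 100% of rows), so no filter on signal was possible. Control probe sets (64 of 45101) were left out. Names came from GEO's platform annotation; all 70 member probe sets matched RefSeq (GRCm38.p6) by Entrez identifier and 0 changed name.

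The region difference was fitted on all 45037 probe sets in R 4.3.3 by limma 3.58.1 (lmFit, eBayes). P-values were adjusted over all of them (Benjamini-Hochberg, threshold 0.05). The fit was tested on simulated data. The median SE of a difference was 0.127; the number of arrays limits the precision. Probe sets were kept apart because picking the most variable favours a difference. Values in all arrays are given for each member probe set past the threshold, up to 3 per gene, and for the uncalled gene with the largest difference in each role. From each pathway list up to 4 called genes are named; Cox10, Gpc3, Hs6st1, Twist1 and the neuronal genes were named after their values were seen. Replicate numbers were not treated as pairs, since no pairing is stated. The deviations of same-numbered samples correlated at 0.00964, 0.125 and 0.114, and those of differently numbered samples at -0.149 to 0.0274. These values do not settle whether pools were paired, so a fit with the replicate number as a block is given as an alternative. Alternatives were further scaling, eBayes settings, array weights, the replicate block, thresholds, probe set choices and leaving out each array. Promoter sequences are RefSeq's. Python 3.11.15, pandas 2.3.3 and matplotlib 3.10.9 were used for sequences and plots.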

Additional observations from a re-analysis of the deposited data

How the results depend on the processing

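Further scaling (quantile, array centring, cyclic loess), array weights and, apart from 4 added higher ones, a trended and robust eBayes left 10 higher and 3 lower member probe sets. No member reversed its direction among calls except under one choice. Taking the most variable probe set of each gene gave Hs2st1 a log2 difference of -0.12 (adjusted p = 0.869), because it picked the noisy 1440905_at, and left 4 higher member genes; averaging the probe sets of a gene left 5 higher and 5 lower, with fewer genes tested. A threshold of 0.01 gave 584 higher and 373 lower of all probe sets; one of 0.1 gave 1419 lower of all and 6 lower members. Leaving out each array, and so fitting fewer, gave 753 to 991 higher and 510 to 743 lower of all, with 8 to 9 higher and 3 to 4 lower members. Counts over all probe sets were 753 and 510 without floor plate replicate 1, 852 and 537 without its replicate 3, and for the ventral lateral samples 800 and 562 without replicate 1 and 781 and 594 without replicate 3. With the replicate block 9 higher and 4 lower members passed, Hs2st1 1422739_at being lost and Gpc5 gained, and 1062 higher and 842 lower of all. The block also took the call from both Col18a1 probe sets (adjusted p of 0.0535 and 0.0688), Hspg2 (0.0628), Uxs1 (0.0840), Ncan 1444020_at (0.0662) and Chst11 (0.1003). Of 156 refits of the pathway and reference genes with an array left out 46 missed the threshold, all in the same direction, those of Col18a1, Hspg2, Uxs1, Chst11, Chst15, Ncan and Vcan among them. Centred values hold no signal level, so what signal over background limits cannot be read from them.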
